A study of Mus musculus with 6 samples.

Results

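The 9 genes described here encode the Cyp2c enzymes of the mouse colon, their P450 relatives Cyp2s1 and Cyp3a13, the xenobiotic receptors PXR (Nr1i2) and CAR (Nr1i3), and the P450 reductase Por. They were chosen by name, with log2 differences of Cyp2c55 and Cyp2c65 on these same arrays already known, so their values are a description and not independent evidence. Of the 9, 8 had a probe set of their own, out of 19938 genes with one on the array, and Por was not analysed here. Where a gene had several probe sets the one with the highest mean over the 6 arrays was to be kept, but each of the 8 had exactly 1. All 8 lay above the floor of 5.81 on the log2 scale below which genes were left out as dim, and 12071 genes in all were tested.

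RNA was measured on Affymetrix arrays in EpCAM+CD45- epithelial cells sorted from the colon of wild-type male BALB/c mice aged 6 weeks. All mice had fasted for 36 h and then fed again for 24 h. The antibiotics group (3 arrays) received antibiotics while feeding again, and the re-fed group (3 arrays) received none. The sources used here do not give the agents, their dose or the number of mice behind each array, and p-values measure the spread between these samples.

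Cytochrome P450 enzymes are haem proteins of the endoplasmic reticulum that oxidise drugs, dietary compounds and fatty acids such as arachidonic acid, with electrons passed to them by Por. PXR and CAR sense foreign compounds and bile acids, pair with RXR, and switch on P450 and transporter genes. In mouse liver, activators of both receptors raise Cyp2c55, and CAR is in part under the control of the clock-driven PAR bZIP factors.

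Values are log2 expression after quantile normalisation, and every difference is antibiotics minus re-fed on the log2 scale. The deposited values of 4 arrays (antibiotics replicates 1 and 2, re-fed replicates 2 and 3) share 372 to 435 identical numbers per pair, against 42 to 198 for pairs with another array. Antibiotics replicate 3 also stood apart by its 10829 distinct values, against at least 34568 on each other array. The 4 arrays were taken as normalised together, which no label states, and differences within these 4 arrays stand beside those over 6. In the sorted cells the leukocyte gene Ptprc (CD45) lay below the floor in both groups (5.40 ± 0.12 with antibiotics and 5.44 ± 0.11 without, SD, n = 3 each), as did the hepatocyte gene Alb (means of 5.69 with antibiotics and 5.59 without). By their 6-array means, 4 of 5 T cell and leukocyte genes and 5 of 7 hepatocyte genes lay below it. So did 4 of 5 myeloid genes and 2 of 3 B and plasma cell genes, but only 2 of 6 stroma and endothelium genes. Above the floor lay Cd3e (6.21 with antibiotics and 6.36 without) and the hepatocyte genes Ttr (8.07 and 7.55) and Tat (9.98 and 10.10). Cd68 (7.09 and 7.10), Ighm (6.32 and 6.35), Col1a1 (6.83 and 6.69), Col1a2 (6.74 and 6.58), Col3a1 (6.78 and 6.72) and Pecam1 (5.69 and 6.14) also lay above it. Epcam averaged 12.12 with antibiotics and 12.16 without. All 8 pan-epithelial markers lay below 0 in difference, with Krt18 lowest (-0.59), and their summed linear signal was 44282 to 47087 on the antibiotics arrays and 49403 to 51374 on the re-fed arrays. The 8 absorptive colonocyte markers went both ways, with sums of 59979 to 66133 on the antibiotics arrays and 63244 to 68870 on the re-fed arrays. The part of this shift in the differences below was not tested. In sorted cells measured in bulk, fewer cells of a type and less RNA per cell cannot be told apart.

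The 250 bases before the start of the Cyp2c genes, paralogs in 1 cluster on chromosome 19, are shown to set their letters side by side. Over 6 arrays Cyp2c66 alone of them did not stand lower with antibiotics (0.21), and that sign rested on 1 array. Without re-fed replicate 1 its difference was -0.11, and its mean of 5.87 lay close to the floor, so it is no clear exception. They come from RefSeq (GRCm38.p6) and run 5′ to 3′ on the strand of the gene. Capitals mark the best match to CAAAGTCCA, letters bound by HNF4, a nuclear receptor of liver and intestinal epithelium. The windows are chr19:39006769-39007018 (plus strand) for Cyp2c55, chr19:39060756-39061005 (plus) for Cyp2c65, chr19:39113648-39113897 (plus) for Cyp2c66 and chr19:39741102-39741351 (minus) for Cyp2c68.
Cyp2c55: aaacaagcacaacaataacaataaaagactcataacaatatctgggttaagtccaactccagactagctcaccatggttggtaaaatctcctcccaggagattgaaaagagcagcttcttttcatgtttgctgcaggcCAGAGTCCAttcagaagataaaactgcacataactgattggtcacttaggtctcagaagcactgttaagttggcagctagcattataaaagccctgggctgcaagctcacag
Cyp2c65: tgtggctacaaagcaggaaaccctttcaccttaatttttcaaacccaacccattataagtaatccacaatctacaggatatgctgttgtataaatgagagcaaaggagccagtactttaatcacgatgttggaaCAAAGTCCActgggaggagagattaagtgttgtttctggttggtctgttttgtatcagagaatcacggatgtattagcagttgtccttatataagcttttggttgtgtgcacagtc
Cyp2c66: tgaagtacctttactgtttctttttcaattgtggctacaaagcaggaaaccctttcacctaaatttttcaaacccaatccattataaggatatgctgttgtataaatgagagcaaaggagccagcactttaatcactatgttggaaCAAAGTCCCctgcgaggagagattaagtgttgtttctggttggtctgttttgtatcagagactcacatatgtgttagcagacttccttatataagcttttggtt
Cyp2c68: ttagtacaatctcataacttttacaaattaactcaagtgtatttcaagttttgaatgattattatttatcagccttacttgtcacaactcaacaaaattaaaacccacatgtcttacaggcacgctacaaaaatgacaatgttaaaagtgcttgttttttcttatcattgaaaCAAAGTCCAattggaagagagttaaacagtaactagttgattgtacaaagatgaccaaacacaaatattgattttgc

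Cyp2c65 and Cyp2c68 held the 9 letters exactly, at positions -116 to -108 and -77 to -69 from their starts. Cyp2c66 differed from them by A9C and Cyp2c55 by A3G, with the letter of the motif first and positions counted from 1 at its 5′ end. Cyp2c65 and its neighbour Cyp2c66 shared 208 of 250 bases when aligned end to end, whereas each other pair of the 4 shared 136 to 143. The exact letters, on either strand, were found in 2 of the 9 members' windows and in 0.381% of 27025 RefSeq windows of that length. With 1 mismatch allowed, a search added after the sequences had been seen, they were found in 5 of 9 and in 7.09%. None of the 9 windows held the PXR and CAR core letters AGTTCA (11.9% of all windows) or AGGTCA (13.8%), or the D-box letters TTATGTAA (0.862%) or TTACGTAA (0.0999%) of PAR bZIP factors. The E-box CACGTG stood only before Nr1i3 (6.05% of all windows), the CDX letters TTTATNG only before Cyp2c55 (10.2%) and GCGTG, bound by the aryl hydrocarbon receptor, before Cyp2c68 and Por (28.2%). No 2 of these matches overlapped. A match describes the letters of this window alone.

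Of the 4 Cyp2c enzymes, Cyp2c55, Cyp2c65 and Cyp2c68 stood lower with antibiotics over 6 arrays and Cyp2c66 did not. Cyp2c55, a P450 that oxidises arachidonic acid, had values of 10.99, 11.16 and 10.48 on the antibiotics arrays, against 11.89, 12.32 and 12.42 on the re-fed arrays. The groups did not overlap, with a gap of 0.73 between the nearest arrays. The means were 10.88 ± 0.35 with antibiotics and 12.21 ± 0.28 without (SD, n = 3 each), a difference of -1.33 (SE 0.19, 95% interval -1.77 to -0.90), or a 2.52-fold lower level. Limma's test over all genes gave an adjusted p of 0.0584, just outside the threshold of 0.05.

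Within the 4 arrays normalised together Cyp2c55 differed by -1.29 (SE 0.11) and passed (adjusted p = 0.0156, limma). When any 1 array was left out of the 6, the difference lay between -1.49 and -1.13 and the adjusted p between 0.0524 and 0.273. The call therefore depended on the setting, while the sign was negative in every fit that was run. Over the 6 arrays 11 of the 12071 genes, Cyp2c55 included, had a difference this low or lower.

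Cyp2c68, another enzyme of the subfamily, had values of 5.87, 6.40 and 6.63 with antibiotics, against 6.82, 7.52 and 7.35 without. The groups did not overlap, but the highest antibiotics array lay 0.19 below the lowest re-fed array. The means were 6.30 ± 0.39 with antibiotics and 7.23 ± 0.36 without (SD, n = 3 each), and the difference was -0.93 (SE 0.22, limma adjusted p = 0.171). Within the 4 arrays it was -1.30 (SE 0.17) and passed (adjusted p = 0.0361).

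The annotation also places Cyp2c68 on a second probe set, jointly with Cyp2c40, Cyp2c67 and Cyp2c69, which can name none of them. It read 7.40, 7.45 and 7.78 with antibiotics, against 8.20, 8.12 and 8.04 without. These groups did not overlap either, and the difference was -0.57 over 6 arrays and -0.65 within the 4.

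Cyp2c65, which lies next to Cyp2c55, had values of 7.22, 7.92 and 7.02 with antibiotics, against 7.87, 8.34 and 8.75 without. Here the groups overlapped: antibiotics replicate 2 was 0.051 above re-fed replicate 1. The means were 7.39 ± 0.48 with antibiotics and 8.32 ± 0.44 without (SD, n = 3 each), with a difference of -0.94 (SE 0.26, limma adjusted p = 0.222) over 6 arrays. Within the 4 arrays it was -0.98 (SE 0.23, adjusted p = 0.112).

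Cyp2c66, the next gene along, had values of 5.87, 5.90 and 6.14 with antibiotics, against 5.15, 6.08 and 6.08 without. Re-fed replicate 1 stood apart from the other 5 arrays, and the sign rested on it. The difference was 0.21 (SE 0.23, limma adjusted p = 0.753) over 6 arrays and -0.11 without that array. Within the 4 arrays it was -0.19. The mean over 6 arrays was 5.87, close to the floor of 5.81.

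**Figure D1:**
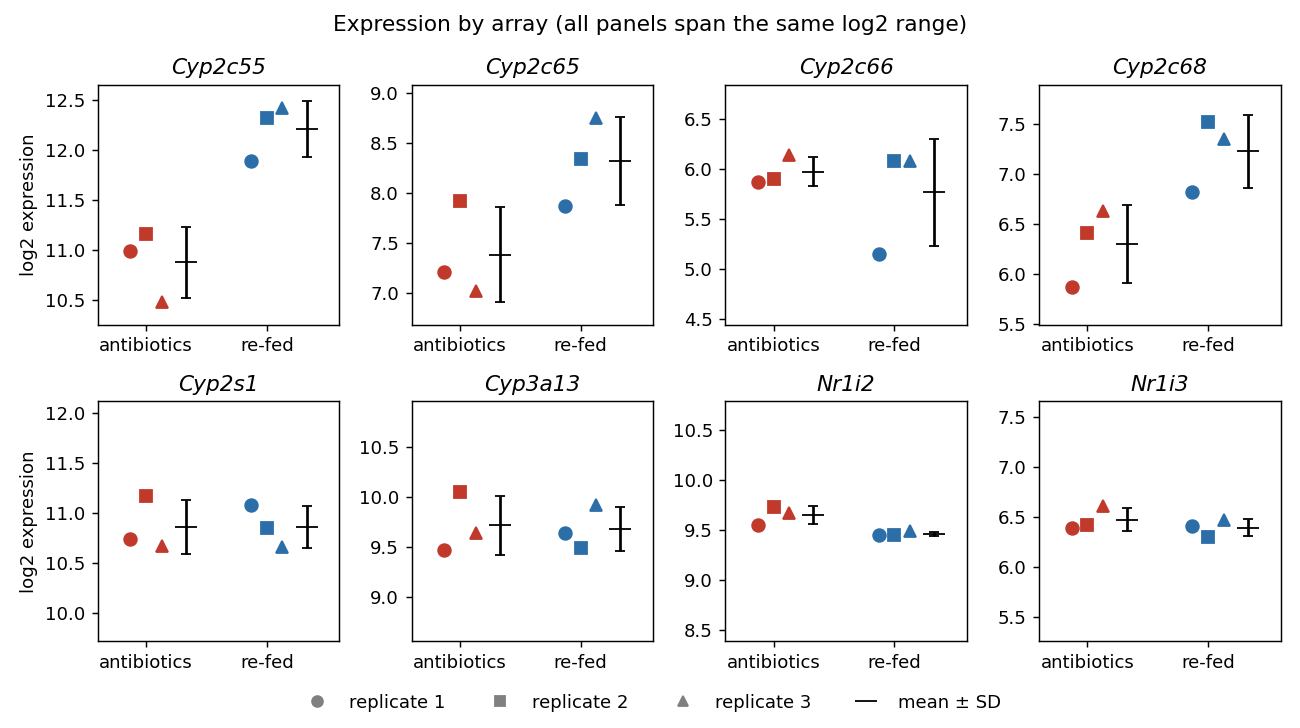
Log2 expression of the 8 measured genes on each array (vertical axis, the same span in every panel), with antibiotics left of re-fed, 1 symbol per replicate, and the mean ± SD beside each group. The 3 antibiotics arrays lie below the 3 re-fed arrays for Cyp2c55 and Cyp2c68, overlap them by 1 array for Cyp2c65, and Cyp2c66 has 1 low re-fed array at 5.15.

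RefSeq lists 14 coding Cyp2c genes side by side on chromosome 19, in the order Cyp2c55, Cyp2c65, Cyp2c66, Cyp2c29, Cyp2c39, Cyp2c38, Cyp2c67, Cyp2c68, Cyp2c40, Cyp2c69, Cyp2c37, Cyp2c54, Cyp2c50 and Cyp2c70. Of these, 12 had a probe set of their own, and the 4 above the floor were the 4 genes just described. The 8 below the floor had differences from -0.41 (Cyp2c67) to 0.034 (Cyp2c54), and their groups overlapped in all 8. At signals this dim a difference is compressed, so these values do not show whether those genes changed. Cyp2c23, which lies elsewhere on the chromosome, is described with the other P450 genes. Whether transcripts of these similar genes bind one another's probes was not tested.

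**Figure D2:**
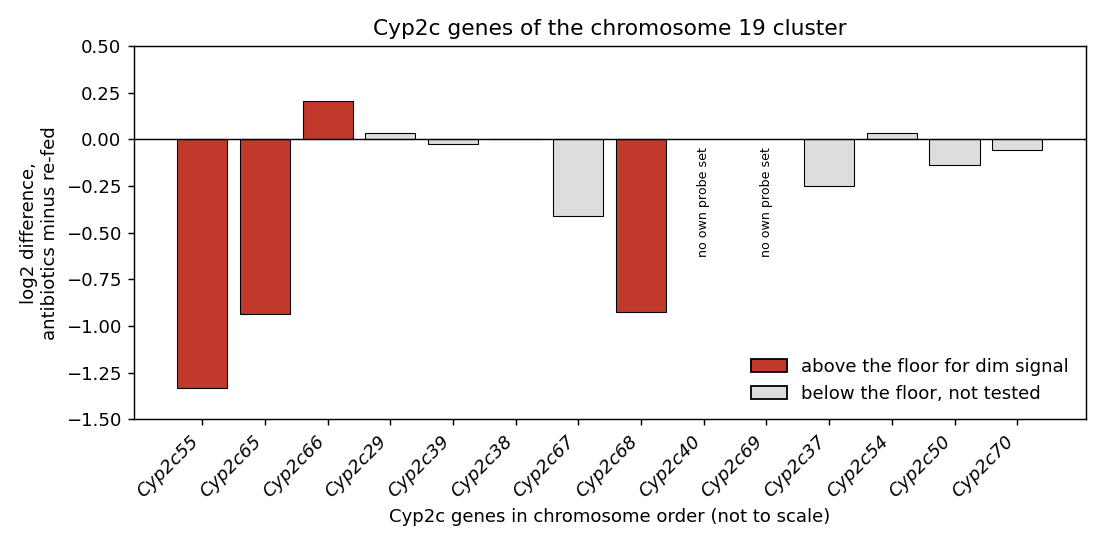
Log2 difference, antibiotics minus re-fed, over 6 arrays (vertical axis) for the Cyp2c genes in their order along chromosome 19 (horizontal axis, distances not drawn). Red bars mark the 4 genes above the floor, of which Cyp2c55 (-1.33), Cyp2c65 (-0.94) and Cyp2c68 (-0.93) are far below 0 and Cyp2c66 (0.21, negative without re-fed replicate 1) is not, and grey bars mark dim genes that were not tested.

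Neither of the other P450 enzymes stood apart between the groups. Cyp2s1, a P450 of epithelia outside the liver, had values of 10.74, 11.17 and 10.67 with antibiotics, against 11.07, 10.84 and 10.66 without. The difference was 0.00028, with a 95% interval of -0.36 to 0.36 (limma adjusted p = 1), and it turned to -0.18 with the deposited scaling. Cyp3a13, a Cyp3a enzyme of mouse liver and intestine, had values of 9.47, 10.05 and 9.64 with antibiotics, against 9.64, 9.50 and 9.93 without. Its difference was 0.034, with an interval of -0.34 to 0.41 (adjusted p = 0.956), and -0.15 with the deposited scaling. Both intervals leave out a change as large as that of Cyp2c55, and neither shows that the level was the same.

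The receptors differed little between the groups. Nr1i2 had values of 9.55, 9.72 and 9.67 with antibiotics, against 9.44, 9.45 and 9.48 without. All 3 antibiotics arrays were above the re-fed arrays, by at least 0.064. The difference was 0.19 (SE 0.099, 95% interval -0.035 to 0.41, limma adjusted p = 0.464). With the deposited scaling it was 0.0056, and the median of all genes tested shifted to -0.12. On that scale the Nr1i2 groups overlapped (9.15 to 9.85 with antibiotics and 9.29 to 9.70 without). Nr1i3 had values of 6.39, 6.43 and 6.61 with antibiotics, against 6.41, 6.30 and 6.47 without, and the groups overlapped. Its difference was 0.081 (interval -0.16 to 0.32, adjusted p = 0.798). The intervals of both receptors leave out a log2 decrease in RNA as large as those of the 3 lower Cyp2c genes. Receptor activity was not measured, and a part of either receptor in those decreases was not tested.

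None of the 8 genes passed limma's test over 6 arrays at an adjusted p under 0.05, where 0.058% of all genes tested passed. At an unadjusted p under 0.05 (limma) there were 3 of the 8, the 3 lower Cyp2c genes, against 1524 of the 12071 genes tested. That background holds for the counts at this level in the lists below as well. Within the 4 arrays 2 of the 8 passed, Cyp2c55 and Cyp2c68, both lower, where 0.447% of all genes passed. The groups did not overlap for 2 of 8 genes on the lower side (10.7% of all genes) and for 1 of 8 on the higher side (8.88%), shares that 8 genes cannot set apart from the background. The median difference was 0.017 over the 8 genes and 0.0033 over all genes tested. A difference of -0.9 or lower, a bound set after the values were seen, was found in 3 of the 8 and in 0.29% of all genes. Because the members were also listed with the Cyp2c55 and Cyp2c65 differences known, these shares are a description and no test of the set.

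**Figure D3:**
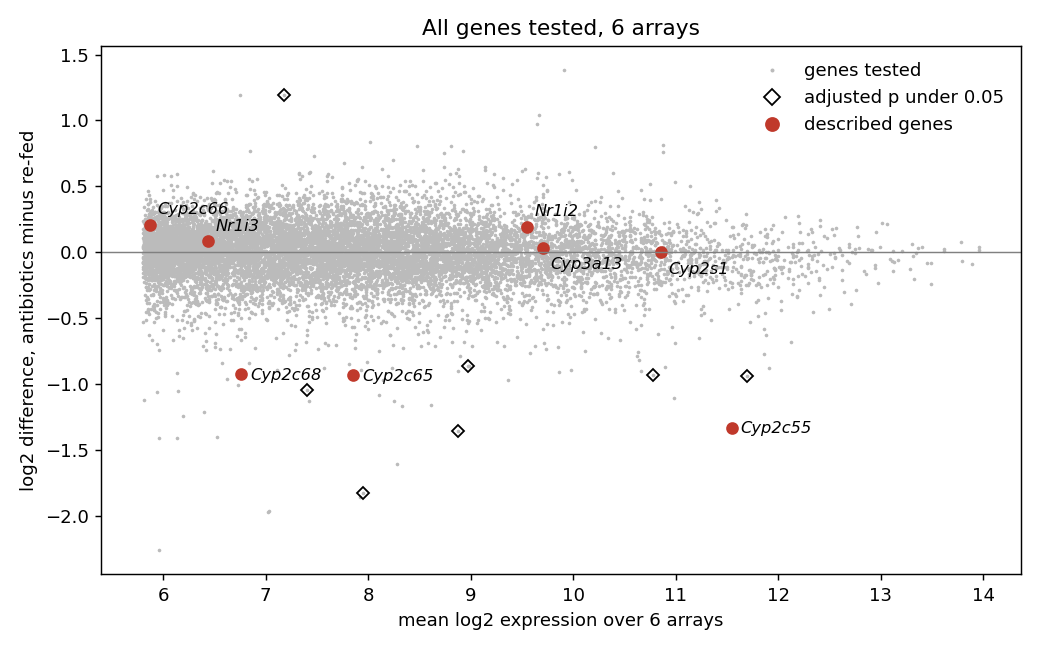
Log2 difference, antibiotics minus re-fed (vertical axis), against mean log2 expression over 6 arrays (horizontal axis) for the 12071 genes tested, with the 8 described genes in red and the 7 genes at an adjusted p under 0.05 as diamonds. Cyp2c55, Cyp2c65 and Cyp2c68 lie below the mass of genes and the other 5 lie within it.

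**Figure D4:**
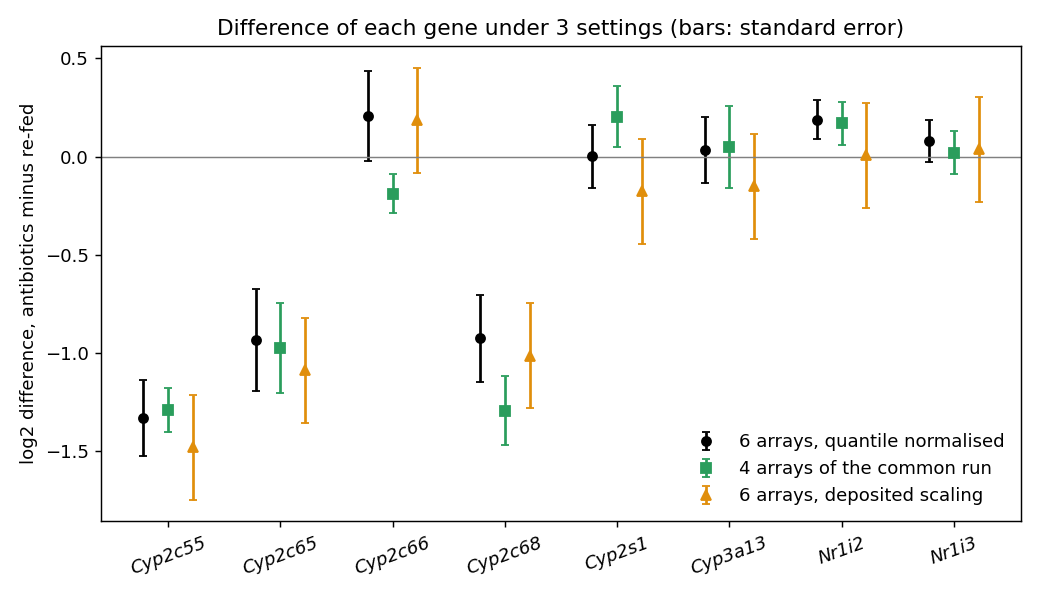
Log2 difference, antibiotics minus re-fed, with its standard error for each gene over 6 arrays after quantile normalisation, within the 4 arrays normalised together, and over 6 arrays with the deposited scaling. Cyp2c55, Cyp2c65 and Cyp2c68 stay at -0.93 or lower in all 3 settings, while Cyp2c66, Cyp2s1 and Cyp3a13 change sign between them. With the deposited scaling limma gave every gene the same standard error (0.27), so those bars do not show a gene's own spread.

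Array by array, Cyp2c55 and Cyp2c65 had similar patterns. Likeness was measured as the root mean square difference between the genes' deviations from their own 6-array means, a description that includes the treatment and the shared arrays. Cyp2c65 was the 8th nearest of 12070 genes to Cyp2c55, at 0.28, and Cyp2c68 was the 96th, at 0.44. Seen from Cyp2c65, Cyp2c55 was the 25th nearest. On antibiotics replicate 2, where they parted most, the deviations were -0.38 for Cyp2c55 and 0.069 for Cyp2c65. The 3 nearest to Cyp2c55 were the tetraspanin Tspan6 (0.17), the hydroxysteroid dehydrogenase Akr1c18 (0.19) and Cyria, a regulator of actin through Rac1 (0.20). The 3 nearest to Cyp2c65 were the steroid dehydrogenase Hsd3b2 (0.089), the membrane protein Emp1 (0.14) and the fibrinogen-like protein Fgl2 (0.18).

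Hsd3b2 read 7.18, 7.94 and 7.05 with antibiotics, against 7.65, 8.29 and 8.77 without. As in Cyp2c65, antibiotics replicate 2 was the highest of its group and re-fed replicate 3 the highest of all. None of these 6 genes passed over 6 arrays (limma adjusted p from 0.0739 for Akr1c18 to 0.296 for Hsd3b2).

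Among other P450 genes of families 1 to 3, 46 of 54 listed had a probe set and 11 lay above the floor, with 0 passing limma's test over 6 arrays (5 at an unadjusted p under 0.05) and a median of -0.060. The lowest was Cyp2f2, known from mouse lung for oxidising naphthalene, with 9.59, 8.85 and 9.78 on the antibiotics arrays, against 10.20, 10.40 and 10.37 on the re-fed arrays. Its groups did not overlap and it differed by -0.91 (SE 0.21, adjusted p = 0.160). Cyp2c23, a further Cyp2c gene, read 5.80, 5.91 and 5.81 with antibiotics, against 6.17, 6.59 and 6.66 without (-0.63, SE 0.14, adjusted p = 0.140), and it passed within the 4 arrays (-0.77, adjusted p = 0.0361). Cyp1a1, Cyp2b10 and Cyp3a11, classic targets of the aryl hydrocarbon receptor, CAR and PXR in mouse liver that are named here outside the rule, lay below the floor, so this array gives no measure of them. Of 13 P450 genes of other families above the floor, none passed (2 at an unadjusted p under 0.05, limma), 9 were above 0 and 4 below. Cyp27a1, the sterol 27-hydroxylase, was 9.02 ± 0.20 with antibiotics and 8.47 ± 0.20 without (SD, n = 3 each, 0.54, SE 0.14, limma adjusted p = 0.202). Cyp4f16, an enzyme of the Cyp4f subfamily, was 9.43 ± 0.11 with antibiotics and 9.69 ± 0.10 without (SD, n = 3 each), and although its groups did not overlap, its difference of -0.26 (SE 0.11) did not pass (limma adjusted p = 0.375).

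Genes of electron supply and haem, the cofactor of P450 enzymes, numbered 18 above the floor, with none passing (3 at an unadjusted p under 0.05, limma), 11 below 0 and a median of -0.056. Alas1, the rate-limiting enzyme of haem synthesis, read 10.36, 10.23 and 10.27 with antibiotics, against 10.68, 10.82 and 10.95 without. Its groups did not overlap, and it differed by -0.53 (SE 0.11, limma adjusted p = 0.117) over 6 arrays and by -0.59 within the 4. Blvrb, a biliverdin reductase, differed by -0.34 (SE 0.13).

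Partners and regulators of PXR and CAR lay close to 0: of 23 above the floor none passed (1 at an unadjusted p under 0.05, limma), and the differences ran from -0.25 (the phosphatase subunit Ppp2ca) to 0.18 (the bile acid receptor Nr1h4, which was -0.013 with the deposited scaling). Rxra and Hnf4a, named outside the rule as the partner of both receptors and the factor of the motif shown above, differed by -0.14 (SE 0.12) and -0.13 (SE 0.098).

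Of 19 other genes known to respond to PXR or CAR, 1 fell and 18 did not pass, with 9 above and 10 below 0 and a median of -0.044. An unadjusted p under 0.05 (limma) was found for 5 of the 19, the gene that fell included. The gene that fell was the efflux pump Abcb1a, at 11.19, 11.44 and 11.05 with antibiotics, against 12.23, 12.19 and 12.09 without (-0.94, SE 0.12, limma adjusted p = 0.0441). Its call was lost when any 1 array but antibiotics replicate 2 was left out (adjusted p from 0.0681 to 0.218) with the replicate number as a block (adjusted p = 0.0821) and when dim genes were kept in (adjusted p = 0.102), at differences of -0.98 to -0.85. The transporter Abcc3 differed by -0.44 (SE 0.14, adjusted p = 0.259). Of 14 epoxide hydrolases and eicosanoid enzymes, which handle the products of arachidonic acid, none passed (6 at an unadjusted p under 0.05, limma). Of these 14, 6 lay above 0 and 8 below. Pla2g4a, the phospholipase that frees arachidonic acid, was the highest at 0.49 (SE 0.13), and the lipoxygenase Alox5 differed by -0.39 (SE 0.11). The lowest was another phospholipase, Pla2g2a, named outside the rule (-0.97, SE 0.32, limma adjusted p = 0.281).

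The PAR bZIP list held 3 genes above the floor: Dbp, Tef and Nfil3, a related bZIP factor without the PAR domain. None of the 3 passed over 6 arrays (2 at an unadjusted p under 0.05, limma). Dbp and Tef lay lower with antibiotics, while Nfil3, named outside the rule, differed by 0.41 (SE 0.20). Dbp read 7.11, 7.50 and 7.83 with antibiotics, against 9.03, 8.54 and 9.71 without (-1.61, SE 0.28, limma adjusted p = 0.0779). Tef differed by -0.54 (SE 0.11, adjusted p = 0.127), and the groups of neither gene overlapped. Nr1i3, which PAR bZIP factors help to drive in mouse liver, had the value near 0 given above. A link between these genes in the sorted cells was not tested.

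**Figure D5:**
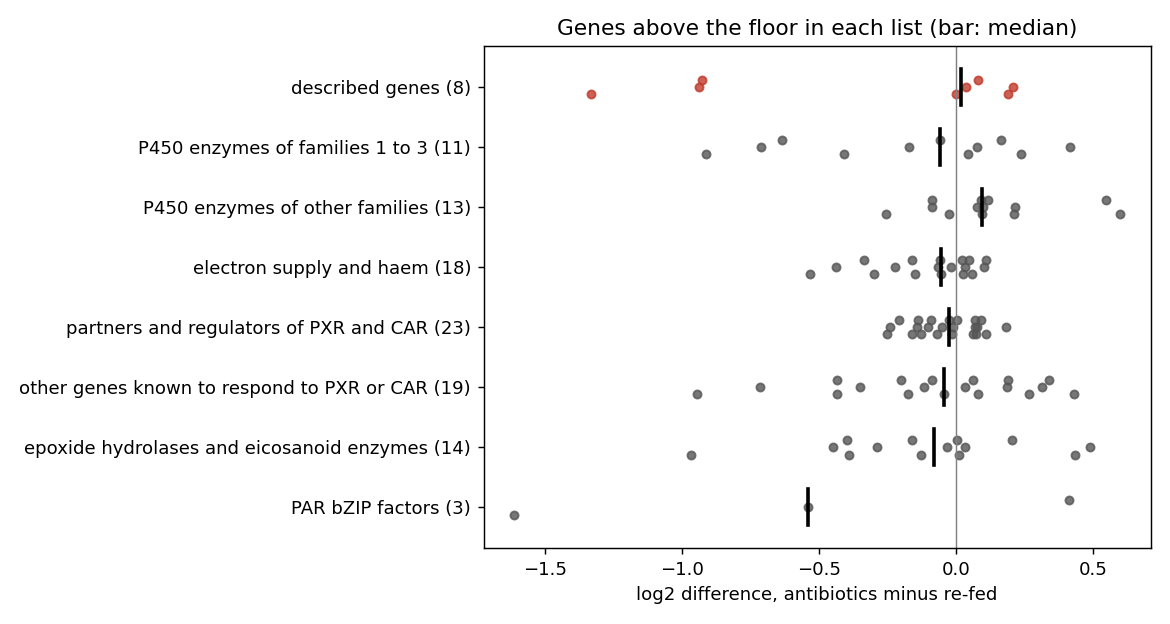
Log2 difference, antibiotics minus re-fed, over 6 arrays (horizontal axis) for every gene above the floor in each list, with the number of genes in brackets and a bar at the median. The 8 described genes split into 3 at -0.93 or lower and 5 between 0 and 0.21. The medians of the 7 other lists run from -0.54 (Dbp, Tef and Nfil3) to 0.095.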

How the data were processed

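Gene expression was measured on 6 Affymetrix arrays, and the deposited table holds log2 values of 35557 probe sets made with RMA (background correction, normalisation and probe summary), per the submitters' processing notes. The sources used here give neither the RMA version nor the authors' annotation. Because array medians differed (5.63 to 6.17), the values were quantile normalised over the 23410 probe sets that the platform annotation ties to genes, 21789 of them to exactly 1. Symbols were checked by Entrez identifier against RefSeq (GRCm38.p6, 21698 matched, 0 changed), and 1 listed symbol was updated (Cyp2c44 to Cyp2c23). Genes whose mean fell below a floor, the 40th percentile over probe sets, were not tested. The number of arrays limits the precision.

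The comparison used limma (version 3.58.1, R version 4.3.3; lmFit, eBayes, two-sided, Benjamini-Hochberg over the 12071 genes tested), tested beforehand on simulated data. The labels name no pairing by replicate number, and the main fit used none. Deviations of same-numbered arrays correlated at -0.22 to 0.021 over genes, against -0.17 to 0.24 for other pairs. With 3 arrays per group these values cannot exclude a pairing. The smallest p of an exact test of 3 against 3 is 0.1, so none is given. Promoters were aligned with Biopython 1.88. The members and lists were chosen with earlier results of these data known. The genes named from each list are those that passed and the 2 with the smallest p, beside the members and the 3 nearest patterns to Cyp2c55 and to Cyp2c65.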

Additional observations from a re-analysis of the deposited data

How the results depend on the processing

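The number of genes that passed was 7 over 6 arrays and also 7 with the replicate block, which changed the call of no member. It was 45 with the deposited scaling, 62 with median centring, 2 without a filter on dim probe sets, 43 with the stricter filter, 43 with a trended and robust spread, 1169 with array weights, 54 within the 4 arrays normalised together and 75 there with the deposited scaling, a setting added after the data were seen. Leaving out 1 array gave 0 to 11 (limma), with 0 without antibiotics replicate 1, where 1040 genes had an unadjusted p under 0.05. Cyp2c55 differed by -1.33 and did not pass over 6 arrays. Nor did it pass without a filter on dim probe sets (limma adjusted p = 0.133), with the replicate block (0.101) or with the mean of a gene's probe sets (0.0613). Without any 1 array it did not pass either (0.0524 to 0.273). It passed with the deposited scaling (-1.48), median centring (-1.44), the stricter filter or the trended and robust spread (-1.33 both) and array weights (-1.31). It also passed within the 4 arrays (-1.29, and -1.31 with the deposited scaling). Cyp2c66 turned to -0.054 with array weights, -0.19 within the 4 arrays, -0.092 there with the deposited scaling and, over the fits without 1 array, ran from -0.11 to 0.36. Cyp2s1 turned to -0.18 with the deposited scaling, -0.14 with median centring and -0.016 with array weights, and ran from -0.15 to 0.11 without 1 array. Cyp3a13 turned to -0.15, -0.11 and -0.096 under those 3 settings and to -0.050 within the 4 arrays with the deposited scaling, and ran from -0.13 to 0.16 without 1 array. Nr1h4 turned to -0.013 with the deposited scaling. The cause was not tested. Cyp2c65 and Cyp2c68 kept their sign in every setting, and both passed with the deposited scaling (-1.09 and -1.01) and with array weights (-1.11 and -1.37). Those weights ran from 0.33 for antibiotics replicate 3 to 3.82 for antibiotics replicate 1, the array on which Cyp2c68 was lowest (5.87). With the replicate block the SE of Cyp2c68 was 0.13, against 0.22 without it, and the gene did not pass (limma adjusted p = 0.101). With the deposited scaling over 6 arrays limma gave every gene 1 pooled variance (SE 0.27 for each), so the calls of that setting, Cyp2c55 included, do not rest on a gene's own spread.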
